A study of Homo sapiens with 10 samples.

Results

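Clustered wild-type MYC peaks are peaks whose summit lies within 5 kb of another wild-type summit on the same chromosome. Of 4749 peaks in the deposited wild-type (WT) list, 378 met this rule (7.96%, Wilson 95% interval 7.22 to 8.76%), and joining neighbours gave 187 clusters. The other 4371 peaks are called unclustered. Members were chosen by the measured positions of WT summits alone, so the number, size and WT strength of the clusters are given as a description, without a test. The cells were U2OS, a human osteosarcoma line, with the MYC gene knocked out and a FLAG-tagged MYC under doxycycline control added. The protein was WT or a mutant called 3A or 7A, and the labels do not say which residues differ. DNA was recovered with anti-FLAG antibody, after 24 h with 1 µg/mL doxycycline for the 3 induced proteins, and mouse NIH3T3 cells at 10% served as the added reference genome. The labels do not say whether a line was 1 clone. The study has 10 libraries in 6 groups: 2 immunoprecipitate (IP) libraries each for induced WT, 3A and 7A and for uninduced WT, and 1 input each for induced and uninduced WT.

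Each induced protein has 1 peak list, with 845 peaks for 3A and 64 for 7A. There is no spread between replicates, no p-value is given, and intervals cover counting error only and treat peaks as independent, although peaks of 1 cluster share a locus. Lists of uninduced WT or of inputs were not analysed here, and the values below have no background from cells without doxycycline. Fold enrichment is the authors' value for a peak, the IP pileup at the summit over its local background, and it is used to rank peaks within 1 list; folds of WT, 3A and 7A are set side by side below but are not on a common scale. Library read totals were not analysed here. The pileup and background were recovered from the fold and p of each peak as the depth behind it. Median pileup was 68 fragments over a background of 13.7 for clustered peaks, and 72 over 13.05 for unclustered peaks.

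MYC is a transcription factor that binds DNA as a dimer with MAX. The dimer prefers the E-box, with the core sequence CACGTG, and is found mostly at active gene starts with CpG-rich DNA. When MYC is abundant it also occupies weaker sites and distal regulatory regions.

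Promoter windows show which DNA lies under clustered summits. The RefSeq windows (GRCh38.p14) run from 250 bases before to 50 after a gene start, and 88 of them held a clustered WT summit. CACGTG, which reads the same on both strands, was present in 18 of the 88 (20.5%, Wilson interval 13.4 to 30.0%), in 419 of 1503 windows with an unclustered summit (27.9%, 25.7 to 30.2%) and in 2548 of all 35116 windows (7.26%). The related hexamer CACGCG, read on either strand, was in 31 of the 88 (35.2%), in 38.4% of windows with an unclustered summit and in 11.4% of all windows. Windows of 1 gene or of neighbouring genes can overlap, and a match is a description of the letters. The windows below hold a summit of a cluster named in the text and were picked because they contain CACGTG. The windows that hold a summit at RRM2, NR1D1, SLC19A1 and ID1 do not contain it. They are printed 5′ to 3′ on the strand of the gene, with CACGTG in capitals and positions counted from 1 at the 5′ end.

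The first 3 windows lie under WT peaks that a 3A peak overlapped, though at DUSP28 the 3A summit lay outside the window. They are DUSP28 (chr2:240560107-240560406, plus strand, motif at 125, summit at 109), SYNCRIP (chr6:85643821-85644120, minus strand, motif at 253, summit at 277) and an internal start of MEPCE (chr7:100429197-100429496, plus strand, motif at 127, summit at 158).
DUSP28: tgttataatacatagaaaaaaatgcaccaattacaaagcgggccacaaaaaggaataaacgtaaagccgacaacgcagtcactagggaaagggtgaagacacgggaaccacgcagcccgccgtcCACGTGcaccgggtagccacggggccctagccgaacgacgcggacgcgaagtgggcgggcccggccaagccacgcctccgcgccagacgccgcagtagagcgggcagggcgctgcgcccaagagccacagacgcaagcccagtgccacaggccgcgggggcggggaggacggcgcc
SYNCRIP: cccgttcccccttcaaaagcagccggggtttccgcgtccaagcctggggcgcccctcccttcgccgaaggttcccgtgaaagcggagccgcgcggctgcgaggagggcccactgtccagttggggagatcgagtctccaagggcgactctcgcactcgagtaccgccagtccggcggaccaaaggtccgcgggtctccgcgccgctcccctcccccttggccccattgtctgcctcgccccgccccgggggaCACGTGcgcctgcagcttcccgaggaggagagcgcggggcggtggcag
MEPCE: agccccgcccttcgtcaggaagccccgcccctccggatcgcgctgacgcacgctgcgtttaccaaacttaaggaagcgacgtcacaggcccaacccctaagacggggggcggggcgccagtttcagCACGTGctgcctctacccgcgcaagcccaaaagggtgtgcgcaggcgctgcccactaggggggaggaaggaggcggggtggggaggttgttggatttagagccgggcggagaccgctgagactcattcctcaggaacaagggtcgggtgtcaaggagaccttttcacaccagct

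The other 5 lie under WT peaks without a 3A peak. They are POLR3A (chr10:78029466-78029765, minus strand, motif at 216, summit at 227), UTP18 (chr17:51260296-51260595, plus strand, motifs at 162 and 255, summit at 267), TNPO2 (chr19:12723883-12724182, minus strand, motif at 227, summit at 197), LINC01730 near CDC25B (chr20:3808244-3808543, plus strand, motif at 39, summit at 52) and PTPRS (chr19:5340763-5341062, minus strand, motifs at 11, 37 and 72, summit at 28). PTPRS was chosen after its values were seen, as the 1 window of these clusters with 3 copies, and its pair had WT folds of 9.77 and 4.00 at summits 4981 bp apart.
POLR3A: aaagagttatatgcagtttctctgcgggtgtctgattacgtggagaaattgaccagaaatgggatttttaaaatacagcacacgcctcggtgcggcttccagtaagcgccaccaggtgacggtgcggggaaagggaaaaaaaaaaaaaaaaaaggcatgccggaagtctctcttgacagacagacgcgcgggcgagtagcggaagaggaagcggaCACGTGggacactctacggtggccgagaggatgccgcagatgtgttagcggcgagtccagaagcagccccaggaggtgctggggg
UTP18: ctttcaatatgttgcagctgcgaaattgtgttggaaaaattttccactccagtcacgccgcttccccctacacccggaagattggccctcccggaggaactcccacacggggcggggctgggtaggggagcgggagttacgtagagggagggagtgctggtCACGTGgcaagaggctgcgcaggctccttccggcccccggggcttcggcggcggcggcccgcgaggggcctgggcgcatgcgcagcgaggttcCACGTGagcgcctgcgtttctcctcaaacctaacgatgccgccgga
TNPO2: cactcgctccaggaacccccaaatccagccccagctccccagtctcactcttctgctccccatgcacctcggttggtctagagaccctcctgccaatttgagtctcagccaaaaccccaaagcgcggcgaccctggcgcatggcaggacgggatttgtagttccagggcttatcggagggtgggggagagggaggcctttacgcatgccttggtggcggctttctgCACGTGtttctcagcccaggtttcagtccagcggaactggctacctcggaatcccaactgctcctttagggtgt
LINC01730: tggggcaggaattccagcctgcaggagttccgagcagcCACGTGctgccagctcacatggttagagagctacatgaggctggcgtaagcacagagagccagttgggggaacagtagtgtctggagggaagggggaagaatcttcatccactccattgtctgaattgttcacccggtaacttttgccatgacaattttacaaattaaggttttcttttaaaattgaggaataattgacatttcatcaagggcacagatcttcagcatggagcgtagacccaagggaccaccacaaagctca
PTPRS: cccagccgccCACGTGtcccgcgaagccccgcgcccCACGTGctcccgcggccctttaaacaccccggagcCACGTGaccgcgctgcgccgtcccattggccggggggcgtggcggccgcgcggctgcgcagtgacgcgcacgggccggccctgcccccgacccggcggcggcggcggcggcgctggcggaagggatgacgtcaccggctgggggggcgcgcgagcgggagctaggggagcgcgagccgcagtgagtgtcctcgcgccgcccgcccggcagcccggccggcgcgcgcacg

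A CACGTG near the WT summit was present both at WT peaks that a 3A peak overlapped and at WT peaks without one. Among the 10 windows under a clustered peak shared with 3A, 3 held CACGTG (30.0%, Wilson interval 10.8 to 60.3%), an interval that holds the share for all clustered windows. CACGCG was in 0 of these 10 (0 to 27.75%), where the share of all clustered windows was 35.2%. The 10 are part of those windows, and some share DNA, at ZCWPW1 with MEPCE and at TCF12 with TCF12-DT. Their intervals treat windows as independent and are thus too narrow, so no difference is read from them.

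Nearly all clusters were pairs. There were 184 pairs, 2 clusters of 3 summits and 1 of 4. Distance between the summits of a pair ran from 387 to 4987 bp with a median of 1464 bp (quartiles 837 to 2728 bp). The called intervals of a pair were separated by 194 to 4519 bp, with a median of 469.5 bp, and in 96 of the 187 clusters (51.3%) the smallest gap was under 500 bp. Many pairs are thus neighbouring calls with a narrow gap between their intervals, and others lie further apart. The signal between the intervals was not analysed here.

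**Figure D1:**
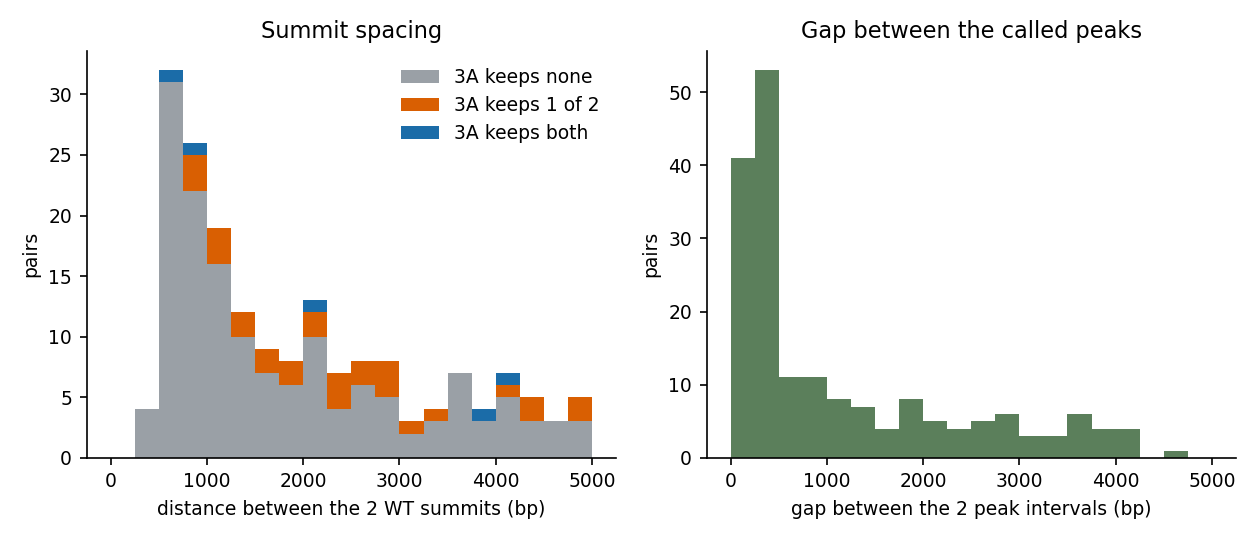
Left, distance between the WT summits of each of the 184 pairs (bp), in bars of 250 bp stacked by how many of the pair 3A kept; right, gap between the called intervals of the same pairs (bp), with counts of pairs on both vertical axes. Spacing has its median at 1464 bp, and most gaps lie under 500 bp with a tail up to 4519 bp.

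At the 5 kb limit, the last pair inside was inside HAUS7 on chromosome X, 4987 bp apart with WT folds of 4.28 and 6.06. The first pair outside was at DNAJC9 and MRPS16 on chromosome 10, 5087 bp apart with folds of 4.24 and 4.25. The clustered share, 7.96% over all WT peaks, varied between chromosomes, and its extremes are given here. Chromosome 7 had 1 cluster holding 2 of its 198 WT peaks (1.01%). On chromosome 21, 5 clusters held 10 of 54 (18.5%), and on chromosome 18, 6 clusters held 12 of 83 (14.5%). These counts are small and were given no interval, so no difference between chromosomes is read from them.

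Clustered peaks included the weakest calls of the WT list. Their WT fold had a median of 4.56 (quartiles 3.61 to 6.43), against 5.18 (4.19 to 6.74) for unclustered peaks, and their median width was 683 bp against 798 bp. All 16 WT peaks with a −log10 q under 3 and all 8 with a fold under 2 were clustered. At the other end, clusters held 6 of the 100 highest WT folds (Wilson interval 2.78 to 12.5%), near the 7.96% of all WT peaks. Within a pair the folds were usually unequal. The higher member had a median fold of 5.78, the lower member 3.835, and their ratio had a median of 1.47 and a maximum of 3.63.

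Pairs with summits at most 1 kb apart differed in form from wider ones. There were 63 of them, and their higher and lower members had median folds of 4.23 and 2.76. In the 74 pairs over 2 kb apart these were 6.78 and 4.50. The median ratio was 1.67 in the close pairs and 1.35 in the wide ones, so the close pairs were the weaker and the more unequal.

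A smaller share of clustered than of unclustered summits lay at gene ends, taken as at most 1 kb from either end of a protein-coding gene. This held for 195 of 378 clustered peaks (51.6%, Wilson interval 46.6 to 56.6%) and for 2662 of 4371 unclustered peaks (60.9%, 59.45 to 62.3%), where the share over all WT peaks was 60.2%. Peaks joined at 2 kb in place of 5 kb were at gene ends in 61.1% of cases, so the lower share was not seen among the closest summits. A further 109 clustered summits (28.8%) lay inside a protein-coding gene away from its ends, against 22.1% of unclustered ones, and 74 (19.6%) lay outside such genes, against 17.0%. In 60 clusters every summit was at a gene end, in 53 none was, and in 74 some were. In 66 clusters (35.3%) all summits lay inside the span of 1 protein-coding gene.

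A gene start often lay between the summits. At least 1 protein-coding start fell between the first and last summit of 97 clusters (51.9%, 44.75 to 58.9%), counted over the 15843 protein-coding genes with a promoter window. The share was 63.5% (40 of 63) where the span was at most 1 kb, 48.9% (23 of 47) at 1 to 2 kb and 44.2% (34 of 77) above 2 kb. EIF3J, a gene of the translation initiation complex eIF3, is an example, with summits 498 bp to one side of its start (fold 3.90) and 499 bp to the other (6.34). Windows of the starts between summits held CACGTG in 12 of 130 cases (9.23%, 5.36 to 15.4%). The share was 20.5% in windows that held a clustered summit, with overlapping intervals. Some windows, as at UTP18 and TNPO2, are in both sets, so these are not separate groups.

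The main comparison asked how many peaks of a cluster 3A kept, a WT peak counting as kept if a 3A peak overlapped it by at least 1 bp. 3A kept 39 of 378 clustered peaks (10.3%, Wilson interval 7.64 to 13.8%), where the share over the whole WT list was 15.1%, and 678 of 4371 unclustered peaks (15.5%, 14.5 to 16.6%). The difference was -5.19 percentage points (Newcombe 95% interval -8.09 to -1.565). The difference moved with the settings. It was -2.67 points when summits were joined at 10 kb and -8.42 at 2 kb. It was -3.05 with WT and 3A peaks both limited to a −log10 q from 10 up. With WT intervals under 1 kb apart merged into 1 peak, 21 of 144 clustered peaks were kept (14.6%) and the difference was -0.88 points.

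Seen by cluster, 3A kept no peak in 153 of 187 (81.8%, 75.7 to 86.7%), some in 29 (15.5%, 11.0 to 21.4%) and all in 5 (2.67%, 1.15 to 6.11%). At least 1 peak was kept in 34 clusters (18.2%, 13.3 to 24.3%), an interval that holds the 15.5% of unclustered peaks. These shares differ in unit, since a cluster has 2 or more peaks that could be kept and an unclustered peak is 1. The 3 clusters with more than 2 summits had none kept. All 29 clusters kept in part were pairs, so 3A kept 1 of the 2 peaks there.

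Within pairs, higher and lower members had separate shares. The higher member was kept in 29 of 184 pairs (15.8%, 11.2 to 21.7%) and the lower member in 10 (5.43%, 2.98 to 9.71%). Unclustered peaks with the same mix of 4 equal groups of the WT list by fold were kept at 17.99% and 11.65% in turn. At this mix the gap was larger for lower members than for higher ones. Folds were not matched within a group, where all 8 WT peaks with a fold under 2 were clustered, and these shares have no interval. In the pairs with 1 peak kept, it was the peak with the higher WT fold in 24 of 29 (82.8%, 65.45 to 92.4%). The 5 exceptions, named after their values were seen, had the kept and the other peak at folds of 4.88 and 9.20 at ZC3H6, 8.72 and 14.5 at LOC124901225, 4.13 and 5.63 at RPL41, 4.91 and 5.30 at PLEKHG4 and 3.69 and 6.85 at UQCC1.

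**Figure D2:**
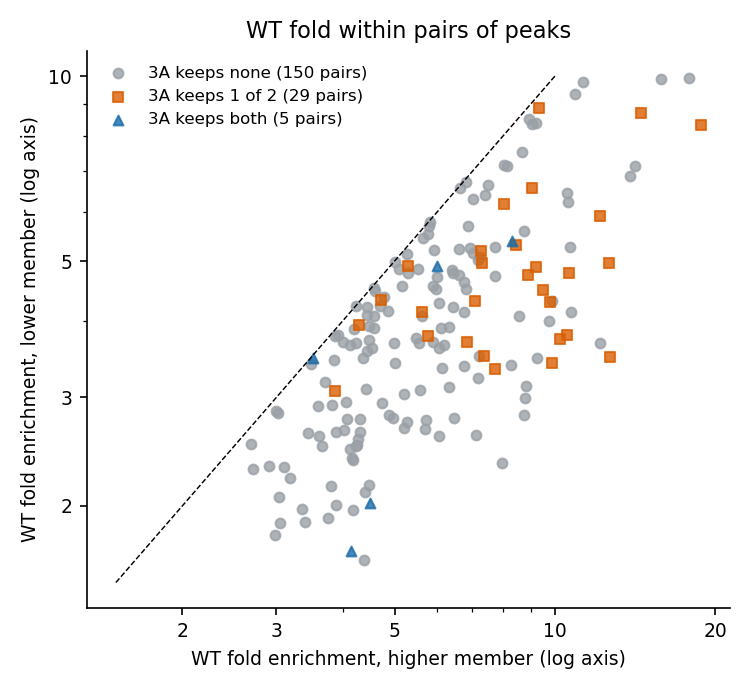
WT fold enrichment of the higher member (horizontal, log axis) and lower member (vertical, log axis) of each of the 184 pairs, with the marker showing how many 3A kept; the dashed line marks equal folds. Pairs with 1 peak kept have a median higher fold of 8.89 and lower fold of 4.48, and pairs with none kept 5.51 and 3.69.

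Across the groups of WT fold, the clustered share was below the unclustered one in each, by differing amounts. In the group with the lowest folds 3A kept 6 of 144 clustered peaks (4.17%, 1.92 to 8.79%) and 97 of 1043 unclustered ones (9.30%, 7.68 to 11.2%). In the group with the highest it kept 22 of 86 (25.6%, 17.5 to 35.7%) and 336 of 1103 (30.5%, 27.8 to 33.2%), and the interval of that difference ran from -13.4 to 5.585 points. In the lower of the 2 middle groups the shares were 9.88% and 10.04%, and in the upper 4.48% and 11.97%. Of these 4 differences, the interval lay wholly below 0 in the lowest group alone (-8.08 to -0.234 points).

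**Figure D3:**
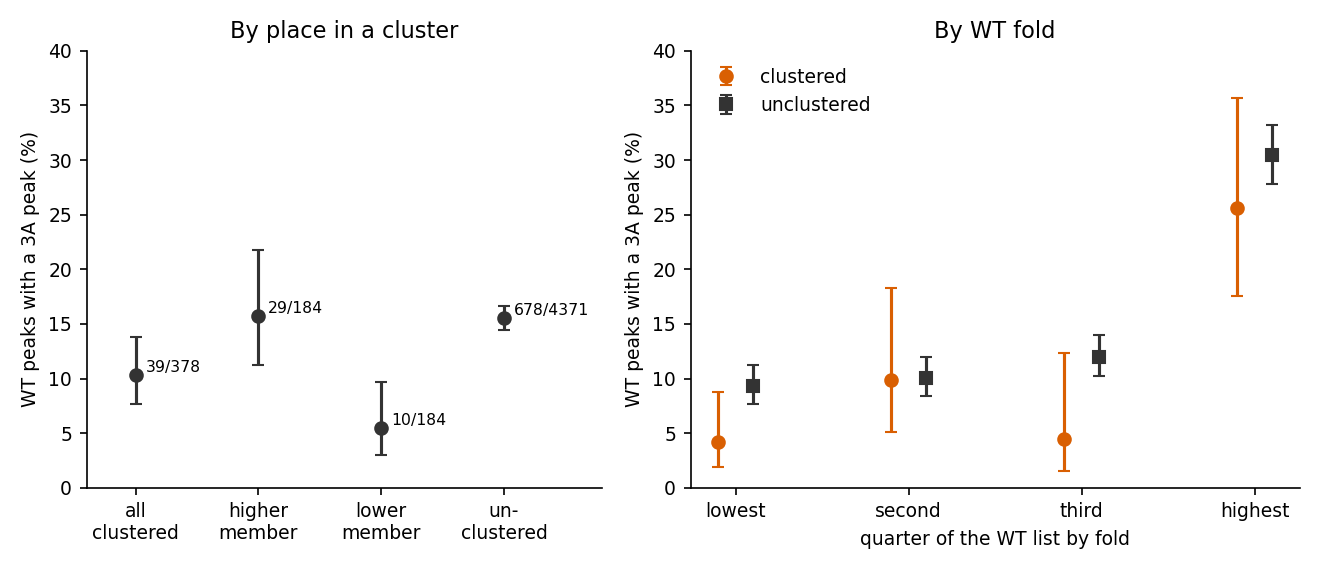
Left, share of WT peaks with a 3A peak (percent) for all clustered peaks, the higher and lower members of pairs, and unclustered peaks, with counts beside the points; right, the same share for clustered and unclustered peaks in 4 equal groups of the WT list by fold. Bars are Wilson 95% intervals. The lower members stand at 5.43% and the unclustered peaks at 15.5%.

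Keeping was also counted by spacing and by place. At least 1 peak was kept in 5 of 63 clusters with a span of at most 1 kb (7.94%, 3.44 to 17.3%), 9 of 47 at 1 to 2 kb (19.1%, 10.4 to 32.5%) and 20 of 77 above 2 kb (26.0%, 17.5 to 36.7%). The WT folds given above move with the span in the same direction, and their part in this difference was not tested. Of clustered peaks at gene ends 3A kept 23 of 195 (11.8%, 7.99 to 17.1%), against 18.4% of unclustered ones (16.9 to 19.9%). Of clustered peaks inside genes it kept 5 of 109 (4.59%, 1.98 to 10.3%), against 10.9% (9.07 to 13.0%). Outside protein-coding genes the shares were 11 of 74 (14.9%, 8.51 to 24.7%) and 11.3% (9.21 to 13.8%). In each of the 3 places the clustered and unclustered intervals overlap. By cluster, at least 1 peak was kept in 10 of 60 with all summits at gene ends (16.7%), 14 of 74 with some (18.9%) and 10 of 53 with none (18.9%). Among clustered peaks the intervals of the 3 places overlap. In pairs with 1 summit at a gene end, that summit was kept in 10 of 73 and the other in 5 of 73, and it had the higher WT fold in 36 of 73.

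The 5 clusters kept whole were pairs with WT folds from 1.69 to 8.32. Their higher and lower members had median folds of 4.49 and 3.48, against 5.51 and 3.69 in pairs with none kept. At AJUBA, which encodes a LIM-domain adaptor of cell junctions, the peaks on chromosome 14 at 22980562 to 22981175 inside the gene and at 22982402 to 22983155 by its start had folds of 8.32 and 5.39 in WT and of 3.43 and 2.80 in 3A. FKBP5, a glucocorticoid-responsive co-chaperone gene, and its neighbour ARMC12 each had a peak at the gene end (6.01 and 4.91 in WT, 4.00 and 3.32 in 3A, summits 3853 bp apart). A pair far from genes on chromosome 20, 116209 bp from CEBPB, had 3.48 and 3.51 in WT and 3.93 and 3.18 in 3A. MEPCE, the gene of the 7SK RNA capping enzyme, had WT folds of 1.69 at its first start and 4.14 at the internal start printed above, and its 3A folds were 1.90 and 2.37. The first is the WT peak with the lowest −log10 q of the list, 1.32. At ZNF407, a zinc finger gene, 1 3A peak (fold 2.50) spanned both WT peaks (2.02 and 4.49), with its summit 3 bp from the weaker one.

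The pairs kept in part with the highest WT folds were led by SOX12 and included CCND2 and RRM2. SOX12, a transcription factor gene, had the highest fold of any clustered peak, 18.8 (chromosome 20, 324064 to 326508), with the summit 1071 bp from the gene, and 3A kept it with a fold of 5.24, rank 42 of the 845 3A peaks. The second peak inside SOX12 (fold 8.34) had no 3A peak. CCND2, the cyclin D2 gene, had folds of 12.7 at a summit 1285 bp outside the gene and 3.50 at one 710 bp inside its end, and 3A kept the first (fold 3.79). RRM2, which encodes a subunit of ribonucleotide reductase, showed the same layout: the summit 1893 bp outside the gene had a fold of 10.2 and was kept (3.28), and the summit 48 bp from the gene start had a fold of 3.74 and was not. EIF2B5, a subunit gene of the exchange factor eIF2B, had a kept peak 1193 bp from the gene (9.78, 3A fold 3.36) and a peak 154 bp from the start that was not kept (4.29). In these 3 genes the kept peak was thus outside the 1 kb window, although a WT peak lay at the gene end itself.

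Other pairs had the kept peak at the start. SYNCRIP, an RNA-binding protein gene, had a fold of 12.6 at a summit 26 bp from its start, kept with a 3A fold of 4.35, and 4.97 at 1678 bp inside the gene, not kept. At DUSP28, a phosphatase gene, and ANKMY1, a WT fold of 12.2 went with a 3A fold of 2.72, while the second peak (5.92), inside ANKMY1, had no 3A peak. There the 3A summit was 679 bp from the WT summit, whereas over the 39 kept clustered peaks the median distance was 25 bp (quartiles 16 to 65.5 bp). PPP1R9B, the spinophilin gene, had its kept peak inside the gene, 1577 bp from its start (10.5, 3A fold 3.36), and a peak of 3.796 outside it. Near LOC124901225 and HMGA1, which encodes an architectural chromatin protein, the peak with the lower fold was kept, as given above. Its 3A fold was 2.76.

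**Figure D4:**
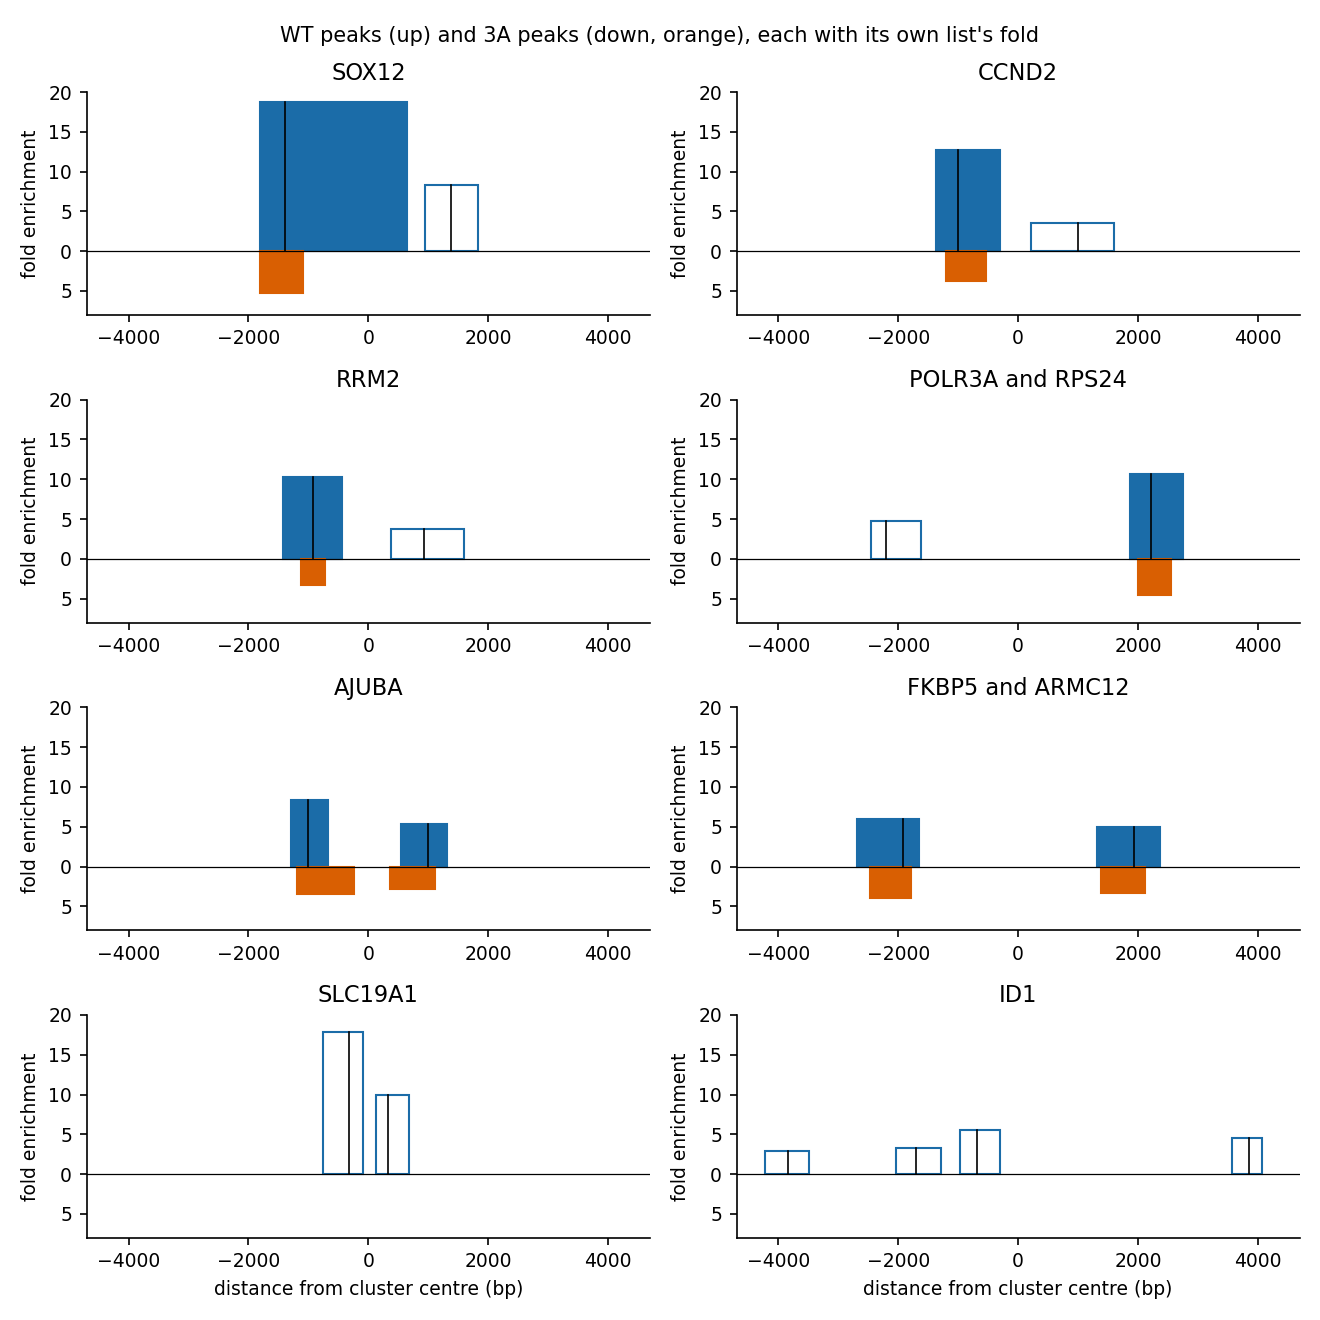
WT peaks of 8 clusters drawn upwards with height equal to WT fold, filled where 3A kept the peak and open where it did not, with the summit as a line; 3A peaks are drawn downwards in orange with their own fold. The horizontal axis is distance from the cluster centre (bp). The CCND2 and RRM2 clusters have 1 filled peak each, AJUBA and FKBP5 with ARMC12 have both filled, and SLC19A1 and the 4 peaks at ID1 are all open.

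Strong clusters without any 3A peak were led by SLC19A1, the reduced folate carrier gene. Its peaks at 45541366 to 45542029 and 45542249 to 45542798 on chromosome 21 had WT folds of 17.9 and 9.92, with pileups of 129 and 66 fragments, and their summits lay 53 and 4 bp from annotated internal starts of the gene. A pair near CDC25B, a gene of a cell cycle phosphatase, had folds of 15.8 and 9.90 at summits 2180 and 5807 bp from the gene. MID1IP1, linked to lipid synthesis, had 14.1 and 7.15, CAMKK1, a calmodulin-dependent kinase kinase gene, 13.9 and 6.87, and PDXK, the pyridoxal kinase gene, 11.3 and 9.77. TNPO2, a nuclear import receptor gene, had 12.2 at its start and 3.68 inside. The remaining ones in this group were C15orf39 (10.9 and 9.34), SPHK1 (10.7 and 4.13), KCTD15 (10.7 and 5.27) and NR1D1. These folds lie in the range of the clusters kept in part, where the higher member ran from 3.87 to 18.8.

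The 3 clusters with more than 2 summits lay at or near ID1, NR1D1 and GLI4. ID1, an inhibitor of basic helix-loop-helix factors, had 4 summits over 7695 bp, at 34 bp from an end of the gene (fold 2.93) and 959, 1976 and 6508 bp from it (3.24, 5.50 and 4.56). NR1D1, which encodes the clock repressor REV-ERBα, had a pair at the gene (10.6 inside and 6.24 by the start) and, 7759 bp away, 3 summits over 5048 bp between it and MSL1 (10.03, 5.81 and 5.03). The third cluster, 1870 bp from GLI4, had folds of 3.44, 2.40 and 3.70. 3A had no peak at any of these 3 clusters or at the NR1D1 pair.

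7A, with 64 peaks, overlapped 4 clustered WT peaks (1.06%, 0.412 to 2.69%), where the share over the WT list was 1.03%. They were in 4 clusters, near CCN1 and SCARB1, at PLEKHG4 and in the distal CEBPB pair. In each, 7A had 1 of the 2 peaks, and 3A had that peak too. At the SCARB1 site, 30655 bp from that lipoprotein receptor gene, the folds were 8.03 in WT, 5.38 in 3A and 4.99 in 7A, each within its own list. At the CCN1 site, 23430 bp from that matricellular protein gene, they were 8.89, 5.00 and 4.29, at PLEKHG4 4.91, 4.09 and 3.36, and at the CEBPB site 3.48, 3.93 and 3.50. Of these clusters only the one at PLEKHG4 was at a gene end.

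Gene lists that include known MYC targets were counted against all protein-coding genes. Of 20037 protein-coding genes, 3352 had a WT summit at either end by the 1 kb rule (16.7%), and for 175 of them (5.22%) such a summit was clustered. Of the 175, 25 had a kept clustered peak there (14.3%, 9.87 to 20.2%), and of the 3352, 628 had a kept peak (18.7%). Cytosolic ribosomal protein genes had WT summits in 66 of 80 cases, and 42 of the 66 had a kept peak, clustered or not. Clustered summits were at 4 of the 66. Of these RPS24 (10.6, 3A fold 4.604), RPL8 (9.86, 4.05) and RPL41 (4.13, 3.31) were kept and RPL39 (8.73) was not. In the first 2 the partner peak was at another gene and was not kept: POLR3A, a subunit of RNA polymerase III (fold 4.79), had its summit 4424 bp from that of RPS24, and ZNF34 (3.41) 4841 bp from that of RPL8. RPL41 had its partner inside ZC3H10 (5.63). At RPL39 the partner was a peak with a fold of 2.81 and a pileup of 18 fragments, the lowest value in the WT list, 862 bp away.

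The counts of clustered genes in the other lists are small and are read against the 5.22% over all genes with a WT summit. Kept counts stand beside the 25 of 175 over all genes (14.3%). Zinc finger genes had 3 clustered of 71 bound, with 1 kept (ZNF407 kept, ZNF34 and ZNF367 not). No other list had a kept clustered peak at a gene end, and at so few genes no difference is read from this. At CCND2, RRM2 and EIF2B5 the kept peak of the pair lay outside the 1 kb window. Translation factors had 3 clustered of 30 bound (EIF2B5, EIF3J and EIF4A1, the last an RNA helicase gene with folds of 8.51 and 8.93). Canonical MYC targets had 2 of 24 (CCND2 and EIF4A1), circadian clock genes 2 of 7 (NR1D1 and DBP, a clock output factor, folds 4.50 and 6.80), mitochondrial ribosomal protein genes 2 of 31 (MRPL14 and MRPL21), nucleotide synthesis genes 1 of 21 (RRM2) and nucleolar ribosome assembly genes 1 of 46 (UTP18, folds 5.02 and 4.98). Splicing genes (24 bound), snoRNA host genes (14), glycolysis genes (11), MYC and MAX network genes (6), lysosome and autophagy genes (3) and HOX genes (3) had no clustered summit at a gene end. Of 72 replication-dependent histone genes none had a WT summit.

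Close pairs were also called in the 3A list. It had 51 peaks within 5 kb of another 3A summit, in 25 clusters, and 5 of these clusters touched a WT cluster. In 16 of the 25, all the 3A peaks overlapped 1 and the same WT peak. Such single WT peaks, chosen after their values were seen, included NCL, the nucleolin gene (WT fold 27.0, 1805 bp wide, 3A folds 3.28 and 1.95 at summits 724 bp apart), CBX3, a heterochromatin protein gene (WT 13.9, 3A 1.73 and 3.16), HSP90AB1, a chaperone gene (7.02, with 2.78 and 2.96), and ATF4, a stress response factor gene (5.61, with 1.92 and 2.60). No 3A peak lay inside a WT cluster without overlapping 1 of its peaks.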

How the data were processed

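Binding was measured by chromatin immunoprecipitation with a reference genome; per the labels' protocols, cells were fixed in 1% formaldehyde for 10 min and chromatin was sheared to 200 to 500 bp. MACS2, Bowtie2, Picard, cutadapt and SAMtools, and the builds hg38, hg19 and mm10, appear in the submitters' processing notes with neither versions nor roles. The way libraries were combined, the control and the use of mouse reads were not given in the sources used here. The authors deposited for each peak a fold ratio, a −log10 p and −log10 q, a score (the whole part of 10 times −log10 q, not used) and a summit offset. Coordinates count from 1 and are hg38: 60.2% of WT summits lay within 1 kb of a gene end, and 5.22 to 5.96% after shifts of 100 kb.

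Summits at most 5000 bp apart were chained. Gene ends came from RefSeq (GRCh38.p14), whose gene table gives no strand, and starts from the promoter windows. Pileup and background were recovered as the whole pileup that gives both the fold (1 added to each term) and the Poisson tail p, which was whole within 0.02 for 4749 of 4749 WT peaks. Tested on simulated data, 402 of 402 clusters and 1000 of 1000 pileups were returned. Clusters described were the 10 largest, all kept whole, the 10 with the highest fold kept in part and with none kept, all with a 7A peak, and up to 3 per gene list; the name is that of genes with an end within 1 kb, else a gene holding a summit, else the nearest. The members, 15 gene lists and rules were chosen with earlier results of these data known. No test was run, since each protein has 1 list. Alternatives covered joining distance, −log10 q in the WT, 3A and 7A lists alike, merging, the overlap rule and gene windows. Scripts ran in Python 3.11.15 with pandas 2.3.3, numpy 2.4.6, statsmodels 0.14.6, matplotlib 3.10.9 and scipy 1.17.1.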

Additional observations from a re-analysis of the deposited data

How the results depend on the processing

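No paired analysis was possible because each protein has 1 peak list, so neither replicate numbers nor a left-out replicate enter any value. Counts moved with the joining distance: 113 clusters of 226 peaks at 2 kb and 284 of 588 at 10 kb, against 187 of 378, and a −log10 q of at least 10 left 123 of 249 and merging left 71 of 144. At 2 kb, 7.08% of clustered peaks were kept by 3A (difference from unclustered -8.42 points), none were kept in 87.6% of clusters and some in 10.6%, and 61.1% of summits were at gene ends. After merging, 14.6% were kept (difference -0.88 points), none in 74.6% of clusters, and 35.4% were at gene ends. The share kept was 7.41% where at least 50% of both peaks had to overlap. The share at gene ends was 46.1% with −log10 q from 5 up and 43.8% from 10 up, 38.4% with a window of 500 bp and 79.1% with 5 kb. The clustered share kept by 3A was below the unclustered one in every setting run. The settings reuse the same peaks, so a shared sign is not repeated support. The difference was given an interval in the main setting alone. Leaving out chromosomes 20 and 22, where 3A kept 24.7% of WT peaks, or measuring distance to starts only, both chosen after the data were seen, kept each value within its counting interval and each count within 1.5 times. The share of pairs in which the kept peak had the higher WT fold ran from 75 to 84.6%. Depth limits the weakest calls, with pileups down to 18 fragments, and 3A signal under the threshold of its list was not analysed here.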

Other observations

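Some clusters touched more than 1 gene. In 39 of the 187 (20.9%) 2 or more protein-coding genes had an end within 1 kb of a summit, and in 12 (6.42%) 2 or more protein-coding starts lay between the summits. Of clustered summits 7 (1.85%, 0.90 to 3.77%) were within 1 kb of a tRNA gene, in clusters at ELF1 and WBP4, METTL26, and near ZNF213 and NARF, against 0.87% (0.63 to 1.19%) of unclustered summits, with overlapping intervals. 3A kept a peak of the NARF cluster alone among these 4. The tRNA clusters were looked at after the values were seen.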
